A study of Macaca mulatta with 95 samples.

Results

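The 7 genes APOA1, APOC1, APOE, APOM, MTTP, TTR and AFP, which encode apolipoproteins and other proteins that the yolk sac secretes, were followed cell by cell through the preimplantation embryo of the rhesus macaque (Macaca mulatta). They were chosen by symbol from the 16049 genes of a table of expression in 95 single cells, and all 7 have a row in it. RNA of each cell was reverse transcribed, poly(A)-tailed, amplified by PCR and read as 100-base single-end reads, and outer cells had been stained with a membrane dye before dissociation. No genetic change or drug separates the groups, which differ by stage, by position in the embryo and by a letter in the title (A, B, D, G or H) that the labels do not explain.

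The 16-cell stage (day 3, letter B) gave 3 outer and 2 inner cells, and 5 cells of each position came from the early morula (day 4, letter H) and as many from the late morula (day 4.5, letter D). The early blastocyst (day 5) gave 6 outer cells, all titled A, and 10 inner cells, 5 titled A, 3 titled G and 2 titled H. The middle blastocyst (day 5.5) gave 5 outer cells titled B and 12 inner cells, 4 each of B, G and H. The late blastocyst (day 6) gave 19 cells labelled inner (15 G and 4 H) and the hatched blastocyst (day 7) gave 18, also inner (9 G and 9 H). For 9 of the late blastocyst cells the source name says hatched instead. Cells are named here by stage, position where a group holds both, title letter and number.

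Since the labels do not say which embryo, animal or culture a cell came from, a group of cells was treated as 1 sample and its cells not as replicates. No difference between groups carries a test or a p-value, and an SD is the spread from cell to cell. Levels are RPKM, reads scaled to gene length and to library size, so that genes of different length can be set side by side. Reads recovered from the steps of the values ran from 1.64 to 13.9 megareads per cell with a median of 8.37 megareads, 7 cells had under 4 megareads, and 2358 to 7379 genes per cell reached 1 RPKM. A single read was worth 0.0453 to 0.319 RPKM of APOA1, 0.0337 to 0.237 RPKM of APOE and 0.00976 to 0.0687 RPKM of MTTP, depending on the cell. In amplified complementary DNA a level listed at 0 can also come from RNA that was not captured.

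The hypoblast is the inner layer of extraembryonic endoderm that lines the blastocyst cavity and goes on to form the yolk sac. Before the liver and placenta take over, the mammalian yolk sac makes much of the embryo's lipoproteins and carrier proteins. Lipoproteins are droplets of lipid wrapped in apolipoproteins. APOA1 is the main protein of high-density lipoprotein, APOE is a ligand of lipoprotein receptors, and APOC1 is a small apolipoprotein that slows lipoprotein clearance. APOM carries sphingosine-1-phosphate on high-density lipoprotein. MTTP, the microsomal triglyceride transfer protein, loads lipid onto nascent APOB in the endoplasmic reticulum. TTR, or transthyretin, carries thyroid hormone and the retinol-binding protein RBP4, and AFP, or alpha-fetoprotein, is the albumin-like serum protein of the fetus.

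The 7 genes fell into a widely detected and a rare set. APOE reached 1 RPKM in 87 of 95 cells (91.6%, exact 95% binomial interval 84.1 to 96.3%), APOC1 in 68 cells (71.6%, 61.4 to 80.4%) and APOA1 in 54 cells (56.8%, 46.3 to 67.0%). APOM and MTTP each reached 1 RPKM in 5 cells, AFP in 4 cells and TTR in 3 cells (3.16%, 0.656 to 8.95%). These intervals cover counting error only, since cells of an embryo are not independent. The range of APOA1, from 0 to 4388 RPKM, was the widest of the 7, and APOE exceeded APOC1 in 50 cells.

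Before the blastocyst, APOC1 and APOE were first seen throughout the early morula and APOA1 was nearly absent. At the 16-cell stage the outer cell B-02 was the only one of 5 with any member above 0, at 0.0646 RPKM of APOA1, 0.285 RPKM of APOC1, 0.385 RPKM of APOE and 10.07 RPKM of APOM. The 5 outer cells of the early morula had 21.7, 3.75, 24.2, 13.5 and 18.2 RPKM of APOC1, and the 5 inner cells had 18.8, 24.2, 100.4, 31.5 and 41.0 RPKM. APOE in the same order of cells was 34.3, 3.84, 45.8, 15.3 and 2.45 RPKM in outer cells and 0.522, 22.7, 35.4, 3.36 and 11.3 RPKM in inner cells. Each of these 10 cells thus held both transcripts, while APOA1 was above 0 in only 2 of them, outer H-02 at 29.4 RPKM and inner H-04 at 1.04 RPKM. In the late morula the mean of APOC1 was 1.90 RPKM (SD 5.10, n = 10 cells), against 29.7 RPKM (SD 26.8, n = 10 cells) in the early morula. Late morula APOE averaged 24.2 RPKM (SD 43.1), but outer D-10 with 130.9 RPKM and inner D-10 with 71.4 RPKM stood far above the other 8 cells, which lay between 0.287 and 12.2 RPKM. The late morula cells were also the shallowest libraries, with a median of 3.26 recovered megareads in the outer ones and of 4.67 in the inner ones. The part of depth in these levels was not tested. Each of these stages also carried its own title letter, so stage and letter cannot be told apart here.

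With the blastocyst cavity all 3 widely detected members had higher means over the pooled cells. Early and middle blastocyst cells averaged 664 RPKM of APOA1 (SD 1326, n = 33 cells), against 1.59 RPKM (SD 6.01, n = 25 cells) in the 16-cell stage and the morulae. On the log2 scale of (mean + 1 RPKM) this is a ratio of 8.00, and 8.86 without the early morula outer cell H-02. APOE averaged 131 RPKM in the early and middle blastocyst and 16.7 RPKM before it, a log2 ratio of 2.90, and APOC1 averaged 93.8 RPKM and 12.7 RPKM, a log2 ratio of 2.79. A gene was called measured where either group mean reached 5 RPKM, and higher or lower at a difference of 2-fold or more. By that rule 3 of the 3 measured members were higher, where 17.9% of 6561 measured genes were higher and 20.3% lower. Dividing by size factors turns that background into 27.1% higher and 13.0% lower, and these members stay higher. APOA1 passed the 5 RPKM minimum only through its blastocyst mean, so the rule could not call it lower. The title letters differ as well, with D only before the blastocyst and A and G only within it. In the 11 early blastocyst cells of letter A, APOC1 averaged 7.92 RPKM (SD 11.3), below its mean of 12.7 RPKM before the blastocyst. The part of the letters in this step was not tested. All 70 blastocyst cells had at least 1 RPKM of APOE, 56 had as much APOC1 and 51 as much APOA1.

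**Figure D1:**
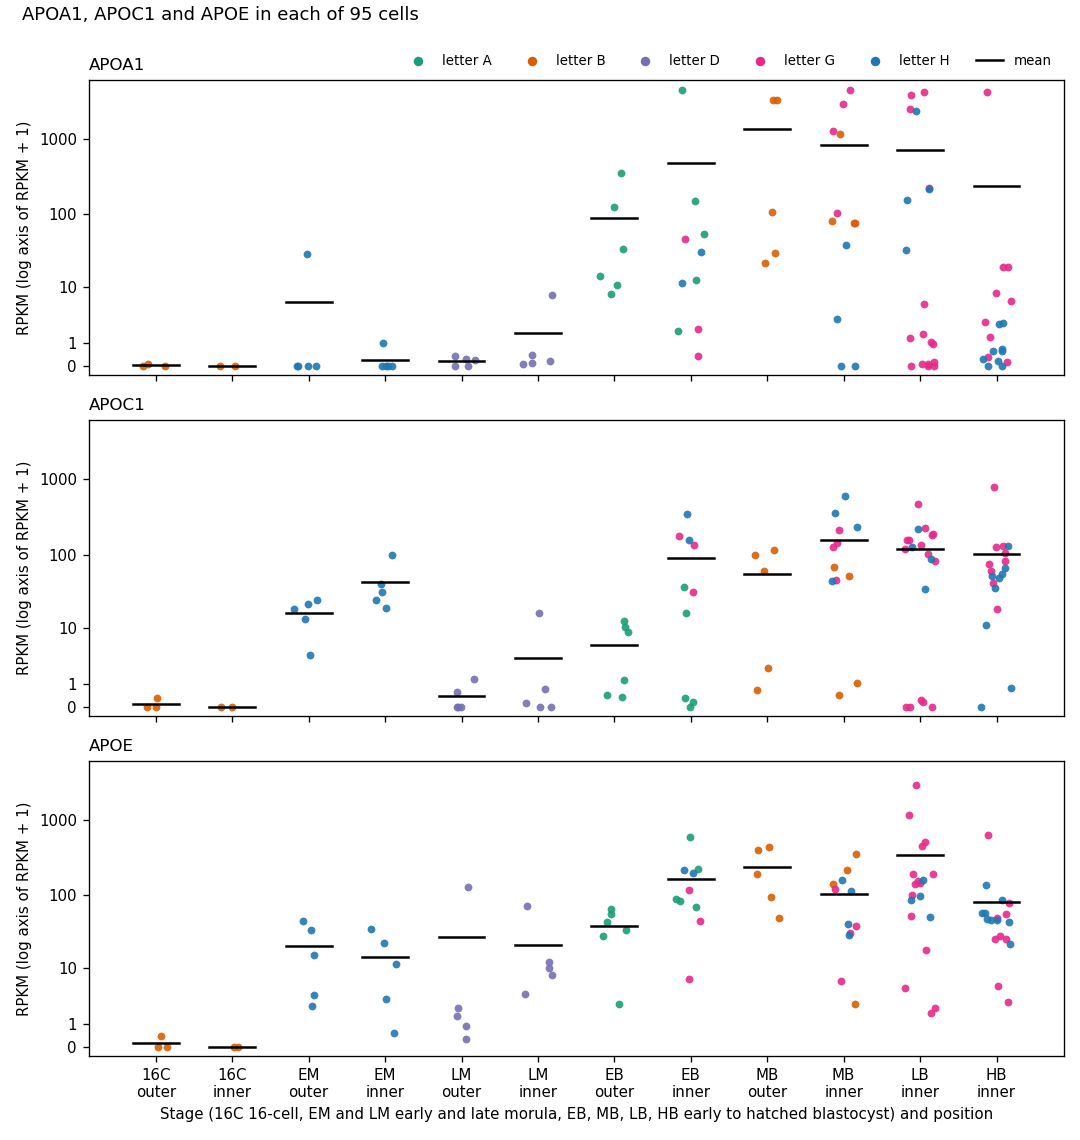
RPKM of APOA1, APOC1 and APOE in each of the 95 cells by stage and position, on a log axis of RPKM + 1, with points coloured by title letter and a line at the mean of each group. APOC1 and APOE are already above 0 in all 10 early morula cells, whereas APOA1 is spread from 0 to 4388 RPKM within the blastocyst.

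Between blastocyst stages the mean of APOA1 changed with a few cells. By stage APOA1 averaged 327 RPKM (SD 1087) in the early, 981 RPKM (SD 1479) in the middle, 701 RPKM (SD 1364) in the late and 234 RPKM (SD 976) in the hatched blastocyst. APOC1 averaged 58.2, 127, 121 and 102 RPKM over the same stages, and APOE 117, 143, 339 and 80.3 RPKM. When the 12 groups of stage and position were ordered by mean, the ranges of neighbouring groups overlapped in all 11 pairs for each member, apart from 1 pair for APOE. The SD of APOA1 exceeded its mean at every blastocyst stage.

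For a comparison over time within the same letters, late and hatched blastocyst cells (n = 37) were set against G and H cells from the inside of the early and middle blastocyst (n = 13). TTR averaged higher by a log2 ratio of 4.35, APOM by 3.23, APOE by 1.29 and MTTP by 1.05, so 4 of 6 measured members were higher and 0 lower, with 20.5% of 7163 measured genes higher and 11.9% lower. APOC1 (-0.84) and APOA1 (-0.50) lay between the thresholds. TTR, APOM and MTTP passed the 5 RPKM minimum only through their late and hatched means, so the rule could not call them lower. Most of these values rest on the late blastocyst cell G-11 and the hatched cell G-14. Without G-11 of the late blastocyst the log2 ratio of TTR was 3.15, that of APOE 0.67 and that of MTTP 0.81. Without G-14 of the hatched blastocyst APOM was 1.40, MTTP -0.63 and APOC1 -1.11, with APOM and MTTP then under the 5 RPKM minimum. MTTP also passed under 2-fold, at 0.97, without any 1 of the 10 early and middle blastocyst cells in which it was under 0.1 RPKM. Within letter G alone APOE (2.44), APOM (3.78) and TTR (4.94) were higher, and MTTP was at 0.90. Within letter H alone APOA1 was higher (3.82), APOC1 lower (-2.09) and APOE at -0.80, the reverse of its pooled sign.

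APOA1 had a small set of very high cells. In 12 of 95 cells APOA1 was at 1000 RPKM or more, and there it ranked between 14 and 95 among the 16049 genes of the cell. They were early blastocyst inner A-08 (4388 RPKM), middle blastocyst outer B-02 (3250) and B-03 (3279), middle blastocyst inner B-06 (1146), G-02 (2836), G-03 (1253) and G-04 (4368), late blastocyst G-11 (4139), G-12 (3757), G-17 (2471) and H-14 (2320), and hatched blastocyst G-14 (4146). The next cell below held 348.9 RPKM, so no cell lay between 349 and 1146 RPKM. This threshold was set after the values were seen and defines no group for comparison.

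Hypoblast markers were seen in the same cells. Of 16 blastocyst cells with at least 10 RPKM of GATA4, the endoderm transcription factor, 10 had 1000 RPKM or more of APOA1. Of 18 cells with as much SOX17, another endoderm factor, 11 did, and of 20 cells with as much NID2, a basement membrane protein, 11 did. Middle blastocyst inner B-06 had the fewest markers among the 12, with 1 of the 14 measured hypoblast markers at 10 RPKM and 0.543 RPKM of NID2. The reverse also occurred. Early blastocyst outer A-02, A-06, A-08 and A-09, middle blastocyst inner G-10 and late blastocyst H-09 had at least 10 RPKM of GATA4 and 10.6, 34.5, 14.2, 348.9, 104.9 and 32.9 RPKM of APOA1. Across the 50 blastocyst cells of letters G and H, APOA1 and GATA4 on the log2(RPKM + 1) scale had a Pearson r of 0.86 (Spearman 0.56), and across the 20 cells of letters A and B the r was 0.27 (Spearman 0.08). These correlations run over cells that share embryos and libraries of differing depth, and describe these cells only.

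**Figure D2:**
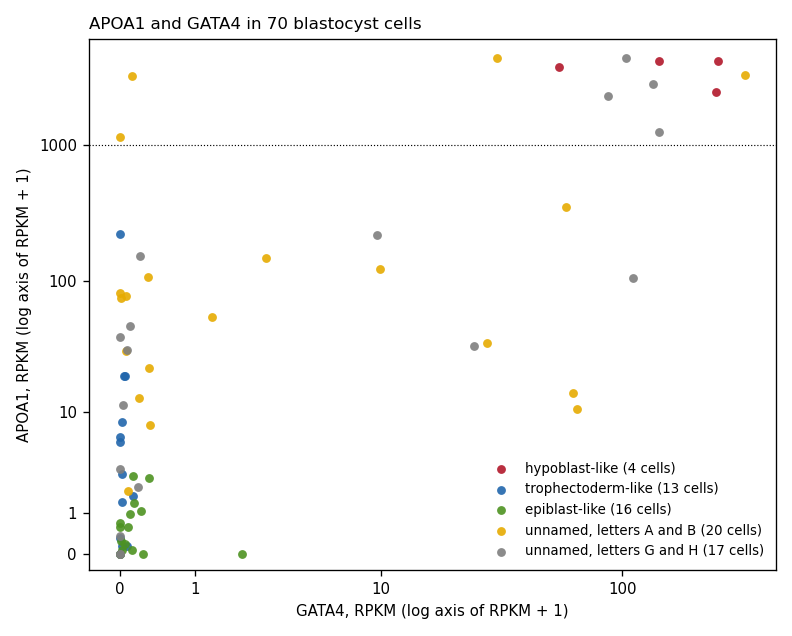
APOA1 against GATA4 in the 70 blastocyst cells, both in RPKM on log axes of RPKM + 1, coloured by the cell classes named from markers (the hypoblast-like, trophectoderm-like and epiblast-like cells described further on) or by title letters for unnamed cells, with a dotted line at 1000 RPKM of APOA1. The 10 cells high in both genes sit at the upper right, 2 cells above the line have GATA4 under 10 RPKM, and 6 cells with at least 10 RPKM of GATA4 lie below the line.

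MTTP and TTR were found at 1 RPKM or more only inside this set of 12 cells, while APOM and AFP were also found outside it. MTTP reached 1 RPKM in 5 cells, at 202.7 RPKM in the hatched cell G-14, 51.8 RPKM in late blastocyst G-11, and 13.0, 7.16 and 16.2 RPKM in middle blastocyst inner G-02, G-03 and G-04. All 5 also had over 1000 RPKM of APOA1, and all 5 carried letter G. TTR reached 1 RPKM in late blastocyst G-11 (433.8 RPKM) and G-17 (88.8 RPKM) and in hatched G-14 (196.1 RPKM). APOM was at 253.9 RPKM in hatched G-14 and 48.0 RPKM in late blastocyst G-17, and also at 11.8 RPKM in hatched G-15, 10.07 RPKM in the 16-cell outer B-02 and 1.33 RPKM in late morula inner D-07. AFP was at 31.6 RPKM in hatched G-14, and at 4.26, 2.31 and 1.44 RPKM in late blastocyst H-15, late blastocyst G-14 and early morula outer H-03. The hatched cell G-14 was the only one with all 7 members at 1 RPKM or more, and 3 cells had at least 5.

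APOM overlaps BAG6 in the RefSeq annotation and the strand of the reads is not given, so reads of the 2 genes may not be separable. In the 84 cells with APOM at 0, BAG6 had a median of 38.0 RPKM. APOC1 lies beside APOE and beside an unnamed locus in the same annotation, and reads shared with a near-identical copy would make its level uncertain.

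**Figure D3:**
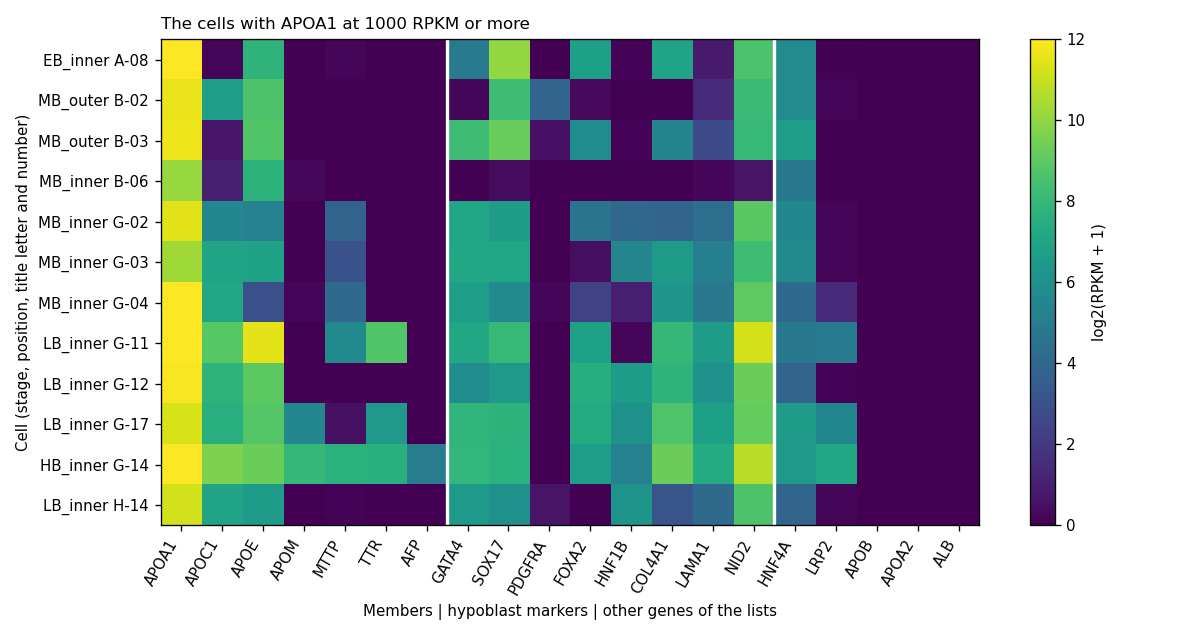
Colour scale of log2(RPKM + 1) for the 7 members, 8 hypoblast markers and 5 other list genes in the 12 cells with at least 1000 RPKM of APOA1. APOE is present in all 12, MTTP reaches 1 RPKM in 5 cells of letter G and TTR in 3 late and hatched blastocyst cells, and APOB, APOA2 and ALB are near 0 throughout.

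Position in the embryo gave no single direction for the members. In the 16-cell stage and morulae, with the 3 stages weighted equally, outer cells were lower in APOC1 (log2 ratio -1.33, and -0.84 without early morula inner H-04) and APOE was between (0.38, and -0.65 without late morula outer D-10). There 9.88% of 6166 measured genes were lower and 13.5% higher. In the early blastocyst of letter A, APOE was at 28.7, 34.1, 65.1, 44.0, 56.9 and 2.69 RPKM in the 6 outer cells, against 85.1, 592, 70.5, 220, and 88.2 RPKM in the 5 inner cells. All outer cells lay below all inner cells, with a log2 ratio of -2.42, and -1.56 without inner A-05. The share of all measured genes that part as fully here is not given. APOA1 in those outer cells was at 10.6, 122.7, 34.5, 14.2, 348.9 and 7.87 RPKM, against 1.91, 12.9, 54.0, 4388 and 148.2 RPKM in the inner cells. Its log2 ratio of -3.34 became 0.72 without inner A-08, which holds nearly all of the inner level, and -4.56 without outer A-09. APOC1 was at -0.83, between the thresholds, and lower than 2-fold (-1.05 to -1.17) without outer A-05, outer A-09, inner A-03, inner A-08 or inner A-10. Here 2 of 3 measured members were lower and 0 higher, where 32.7% of 5350 measured genes were lower and 29.0% higher.

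In the middle blastocyst of letter B the direction of APOA1 was the other one. Its 5 outer cells held 107, 3250, 3279, 22.1 and 29.7 RPKM of APOA1, against 77.2, 81.2, 75.2 and 1146 RPKM in the 4 inner cells. The ranges overlapped. The log2 ratio was 1.95, and 1.31 without outer B-02, 1.30 without outer B-03 and 4.09 without inner B-06. APOE was at 0.38 and APOC1 at 0.85, and APOC1 passed 2-fold (1.16 to 1.61) without outer B-03, outer B-06, inner B-02 or inner B-05. Of 3 measured members 1 was thus higher and 0 lower, with 36.3% of 4904 measured genes higher and 24.7% lower. Of the 14 measured hypoblast markers, 4, 4, 7, 2 and 1 were at 10 RPKM or more in the 5 outer cells in the order given, against 1, 0, 6 and 1 in the 4 inner cells. The part of cells with such markers in the differences was not tested.

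APOC1 was higher in cells of some title letters than of others. In the early and middle blastocyst, inner cells titled G or H averaged 200.5 RPKM of APOC1 (SD 157, n = 13 cells), against 19.5 RPKM (SD 26.6, n = 9 cells) in those titled A or B, a log2 ratio of 3.29. APOE was lower at 86.7 RPKM in G and H, against 197 RPKM in A and B, a log2 ratio of -1.18 (-0.76 without early blastocyst inner A-05). APOA1 stood at 0.01, and at 1.74 without early blastocyst inner A-08. Over all genes, 45.3% of 6710 were higher and 24.8% lower between these letters, or 38.6% and 33.3% after size factors. What the letters stand for is not given in the sources used here, so embryo, batch and collection day cannot be told apart.

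Among inner cells of the middle blastocyst, those titled G held far more APOA1 than those titled H. The 4 cells of G were at 2836, 1253, 4368 and 104.9 RPKM, against 0, 3.22, 38.3 and 0 RPKM in the 4 cells of H. Hypoblast markers moved with them, since 9 of 10 measured ones were higher in G and 1 lower, and GATA4 was at 133, 141, 103 and 111 RPKM in G and at 0 in the 4 cells of H. Of 8 measured trophectoderm markers 1 was higher and 5 were lower. The part of these cells in the members' levels was not tested. For APOA1 all cells of G lay above all cells of H, with a log2 ratio of 7.55 (6.94 without G-04, 10.01 without H-09). The share of all measured genes that part as fully between these letters is not given. MTTP was at 13.0, 7.16, 16.2 and 0 RPKM in G and at 0 in the 4 cells of H. The mean of 9.10 RPKM in G is 190-fold the level of 3 reads per cell in H. That level allows for counting error only, not for RNA that was not captured. APOC1 was lower in G, at 45.8, 127.8, 143 and 211 RPKM against 361, 596, 234 and 44.5 RPKM in H, with overlapping ranges and a log2 ratio of -1.22 (-0.94 without G-02, -0.69 without H-05). APOE was between at -0.79, and lower at -1.71, -1.01 and -1.07 without G-03, H-09 or H-10. So 2 of 4 measured members were higher and 1 lower, where 34.2% of 6687 measured genes were higher and 25.6% lower. MTTP passed the 5 RPKM minimum only through its mean in G, so the rule could not call it lower.

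The 70 blastocyst cells were then sorted into 6 clusters by their other genes, leaving out the 7 members and the lipoprotein lists described further on, and named from markers. A cluster of 4 cells, late blastocyst G-11, G-12 and G-17 and hatched G-14, was hypoblast-like with 13 of 14 measured hypoblast markers above the other cells. PDGFRA was listed at 0 in all 4. These cells also had the epiblast markers NODAL, TDGF1 and LEFTY2 above the other cells, and hatched G-14 held 40.0 RPKM of CDX2, 34.9 RPKM of HAND1 and 132 RPKM of PGF, which are trophectoderm markers, in the deepest library (13.9 recovered megareads). An epiblast-like cluster held 16 cells (7 late G and 9 hatched H) and 2 trophectoderm-like clusters held 13 (5 late and 8 hatched, all G), although all of them are labelled inner. The other 37 cells fell in 2 clusters without a name, 20 cells of letters A and B in cluster 1 and 17 of letters G and H in cluster 2. The planned cut at 5 clusters had put the 5 late trophectoderm-like cells with the hypoblast-like ones, so 6 was chosen after the data were seen.

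The hypoblast-like cells had all 7 members at their highest mean level. APOA1 was at 4139, 3757, 2471 and 4146 RPKM in late blastocyst G-11, G-12 and G-17 and hatched G-14. The highest of the 13 trophectoderm-like cells was late blastocyst G-27 at 223 RPKM, and their median was 2.84 RPKM. No epiblast-like cell exceeded 2.74 RPKM. By mean APOA1 ranked 22nd of 16049 genes in hypoblast-like cells, 3079th in trophectoderm-like cells and 9083rd in epiblast-like cells. The hypoblast-like cells overlapped with neither class, and the log2 ratio was 7.29 over trophectoderm-like (9.14 without late blastocyst G-27) and 11.06 over epiblast-like cells. For this and the other members, the share of all measured genes that part as fully between these classes is not given.

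APOE was at 2900, 510, 448 and 624.8 RPKM in the 4 hypoblast-like cells, averaging 1121 RPKM (SD 1188). It averaged 44.6 RPKM (SD 55.1, n = 13 cells) in trophectoderm-like cells, all below the hypoblast-like cells. Epiblast-like cells averaged 151 RPKM (SD 276, n = 16 cells), and among them late blastocyst G-09 with 1168 RPKM overlapped the hypoblast-like range. The log2 ratios were 4.62 and 2.88, falling to 3.54 and 1.80 without late blastocyst G-11, and the second was 3.73 without late blastocyst G-09. APOC1 was at 476, 224, 181 and 798 RPKM in the hypoblast-like cells. It averaged 93.0 RPKM (SD 54.3) in trophectoderm-like cells, with a highest of 191 RPKM, and 48.6 RPKM (SD 53.7) in epiblast-like cells, with a highest of 156 RPKM. The log2 ratios were 2.16 and 3.08. APOC1 had the lowest log2 ratio over trophectoderm-like cells of the 7 members.

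The 4 rare members varied widely among the 4 hypoblast-like cells. In the order late G-11, G-12, G-17 and hatched G-14, TTR was at 433.8, 0, 88.8 and 196.1 RPKM, MTTP at 51.8, 0, 0.456 and 202.7 RPKM, APOM at 0, 0, 48.0 and 253.9 RPKM, and AFP at 0, 0, 0 and 31.6 RPKM. Late blastocyst G-12 therefore lacked all 4, although it had APOA1, GATA4 (55.7 RPKM) and FOXA2 (177 RPKM). TTR was at 0 in all 13 trophectoderm-like cells and at most 0.155 RPKM in epiblast-like cells. Its mean of 180 RPKM is 873-fold the level of 3 reads per cell in trophectoderm-like cells, a level that allows for counting error only. The log2 ratio of TTR over epiblast-like cells was 7.47 (6.56 without late blastocyst G-11). MTTP had log2 ratios of 6.01 over both classes, and 4.20 and 4.19 without hatched G-14. APOM had 5.32 over trophectoderm-like and 6.23 over epiblast-like cells, which became 3.15 and 4.06 without hatched G-14, and the first was 6.26 without the trophectoderm-like hatched G-15. AFP rested on hatched G-14 alone. Its log2 ratio of 2.96 over epiblast-like cells was -0.19 without that cell. Its mean of 7.91 RPKM, 100-fold the level of 3 reads per cell in trophectoderm-like cells, was 0 without that cell.

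By the 2-fold rule 7 of 7 members were higher in hypoblast-like than in epiblast-like cells, with a median log2 ratio of 6.01 against -0.21 over all 7148 measured genes, of which 26.1% were higher and 35.3% lower. With size factors those shares were 35.0% and 28.6% and the median over all genes 0.27. Against trophectoderm-like cells 7 of 7 were higher as well, with a median of 5.32 (6.01 with TTR and AFP set against 3 reads per cell). The median was -0.28 over 7127 measured genes, of which 24.4% were higher and 35.9% lower. These 2 comparisons share the hypoblast-like cells. In both, APOM, MTTP, TTR and AFP passed the 5 RPKM minimum only through the hypoblast-like mean, so the rule could not call them lower. Within the late blastocyst of letter G alone, with 3 hypoblast-like, 5 trophectoderm-like and 7 epiblast-like cells, 6 members were higher in each comparison. APOA1 was then at 6.20 over trophectoderm-like and 11.17 over epiblast-like cells, and AFP was under the minimum. These cells share the letter and the stage of the title, but the source name of all 5 trophectoderm-like ones says hatched. With 5 clusters 6 members were higher in each, with APOA1 at 7.65 and 9.92, APOE at 3.92 and 1.81, TTR at 6.34 and 6.31 and AFP under the minimum.

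Trophectoderm-like over epiblast-like cells split the members. APOA1 was higher (log2 ratio 3.77, 1.92 without late blastocyst G-27) and APOE lower (-1.74, -0.89 without late blastocyst G-09). APOC1 was between at 0.92, and just over 2-fold (1.02 to 1.15) without late blastocyst G-16, G-18 or G-20 or hatched G-20 or H-05. Of 3 measured members 1 was higher and 1 lower, where 22.8% of 7151 genes were higher and 20.2% lower. APOA1 passed the 5 RPKM minimum only through its trophectoderm-like mean, so the rule could not call it lower. Over all classes the order by mean was hypoblast-like, cluster 2, cluster 1, trophectoderm-like and epiblast-like for APOA1, and ranges of neighbouring classes overlapped for each member.

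**Figure D4:**
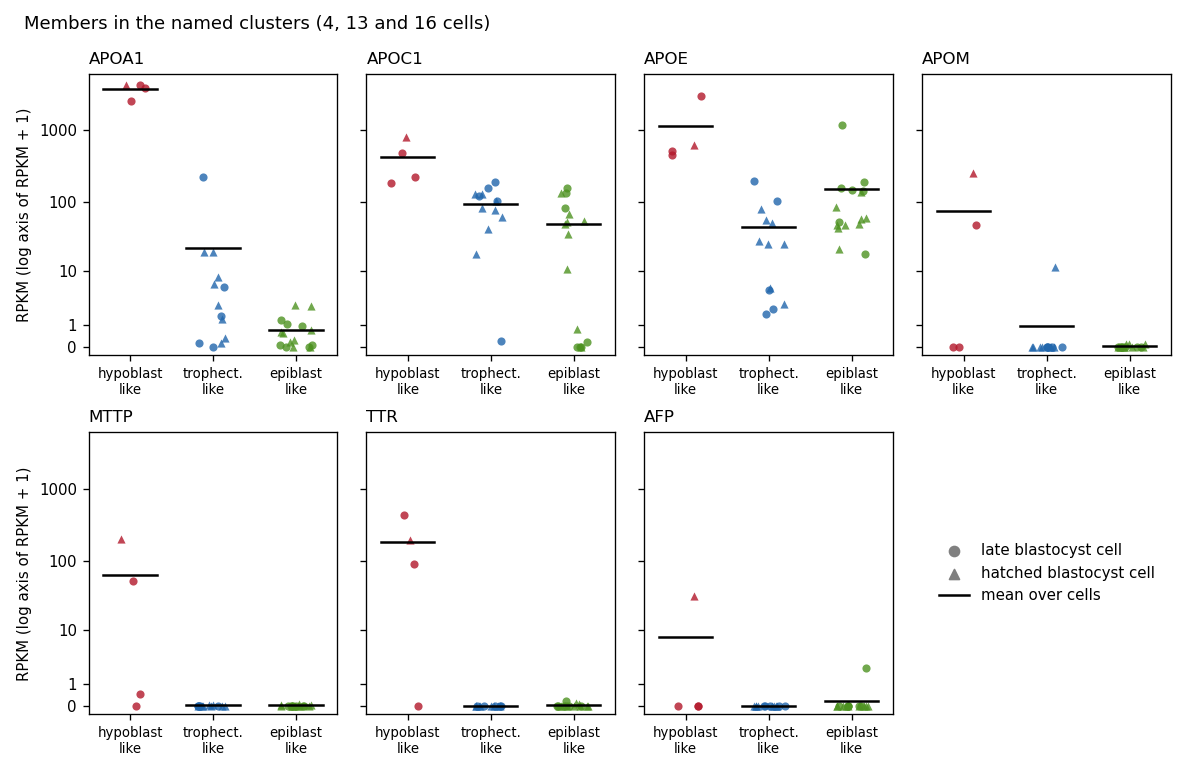
RPKM of the 7 members in the 4 hypoblast-like, 13 trophectoderm-like and 16 epiblast-like cells on a log axis of RPKM + 1, with circles for late and triangles for hatched blastocyst cells and a line at the mean. The 4 hypoblast-like cells lie above all trophectoderm-like cells in APOA1 and APOE and above all epiblast-like cells in APOA1 and APOC1, and late blastocyst G-12 is at 0 for APOM, MTTP, TTR and AFP. The share of all measured genes that part as fully is not given.

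Markers of other cells that could be carried along were also read in these classes. The summed level of 10 cumulus cell markers was 0.277 to 289 RPKM in hypoblast-like cells (median 22.2), against 0 to 22.5 RPKM in trophectoderm-like and 0 to 9.70 RPKM in epiblast-like cells (medians 0). VCAN, at 24.7, 0, 19.7 and 278.9 RPKM, was the only one of them at 10 RPKM or more, and AMH was at most 0.277 RPKM, while 6 of 10, among them FSHR, CYP19A1 and FOXL2, were at 0 in all 4. The 8 fibroblast markers summed to 7.35 to 215 RPKM in hypoblast-like cells, against 22.2 to 108 and 14.9 to 439 RPKM in trophectoderm-like and epiblast-like cells, with COL3A1, DCN, LUM and PDGFRB at 0 in the hypoblast-like cells. COL1A2 was at 212.5 RPKM in late blastocyst G-12, and FBLN1 at 29.7 RPKM in late blastocyst G-17 and 188 RPKM in hatched G-14. The 6 measured blood markers summed to 0 to 35.7 RPKM in hypoblast-like, 0 to 20.1 in trophectoderm-like and 0 to 39.9 in epiblast-like cells, with CD68, CSF1R, ITGAM and HBB at 0 in the hypoblast-like cells and CD14 at 35.7 RPKM in hatched G-14. The part of such RNA in the members' levels was not tested.

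Among other apolipoproteins APOB, the structural protein of very low density lipoprotein and the partner of MTTP, never exceeded 0.0475 RPKM in any cell and was at 0 in the 4 hypoblast-like cells. APOA2, the second protein of high-density lipoprotein, was at 0 in all blastocyst cells. Over the list of 12 other apolipoproteins 2 were measured in hypoblast-like against epiblast-like cells. APOC3, which neighbours APOA1 in the genome, had 425.8 RPKM in hatched G-14 and 0 in the other 3 hypoblast-like cells. It averaged 106 RPKM in hypoblast-like cells, against 282 RPKM (SD 928) in trophectoderm-like and 0.0368 RPKM in epiblast-like cells. The trophectoderm-like mean came from late blastocyst G-27, with 3369 RPKM, the same cell that held the class's highest APOA1. Hypoblast-like cells were thus higher in 1 of 2 measured genes of this list over epiblast-like cells, and higher in 1 (the mitochondrial APOO, 1.42) and lower in 1 (APOC3, -1.40) over trophectoderm-like cells.

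Of the 16 genes for lipoprotein assembly and lipid esters, 5 of 10 measured were higher in hypoblast-like than epiblast-like cells and 1 was lower, and over trophectoderm-like cells 4 of 11 were higher and 2 lower. TM6SF2, which helps load lipid on lipoproteins in the liver, had log2 ratios of 3.81 over epiblast-like and 4.97 over trophectoderm-like cells. They rest on late blastocyst G-17 with 192.6 RPKM, since the other 3 hypoblast-like cells held 0.722 RPKM or less. DGAT2, which makes triglyceride, had 2.52 and 2.62, from hatched G-14 alone (20.7 RPKM, the other 3 at 0). ACAT2, an acetyl-CoA acetyltransferase of sterol synthesis, had 2.47 and 2.32 and was at 0 in late blastocyst G-12 and hatched G-14. P4HB, the protein disulfide isomerase that is the second subunit of the MTTP complex, was at 789 RPKM (SD 365) in hypoblast-like cells, against 269 RPKM (SD 75.3) in trophectoderm-like and 278 RPKM (SD 95.1) in epiblast-like cells. SAR1B, a GTPase of the vesicles that carry lipoproteins from the endoplasmic reticulum, was at most 0.0219 RPKM in hypoblast-like cells, against a mean of 11.9 RPKM (SD 9.20) in trophectoderm-like cells. SOAT1, which makes cholesterol ester, was lower by the rule in both comparisons (-1.12 and -2.02).

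Of 14 receptor and uptake genes, 4 of 6 measured were higher and 2 lower over epiblast-like cells, and 2 of 5 higher and 2 lower over trophectoderm-like cells. LRP2 (megalin), an endocytic receptor of yolk sac and kidney, averaged 55.5 RPKM (SD 64.0) in hypoblast-like and 65.2 RPKM (SD 39.0) in trophectoderm-like cells, against 0.0455 RPKM in epiblast-like cells. Its partner CUBN was at most 0.401 RPKM in any cell. SORL1 had log2 ratios of 2.66 over epiblast-like and 3.59 over trophectoderm-like cells, and LRP1, the broad receptor for APOE-bearing particles, 1.63 and 2.55. VLDLR and SORT1 were listed at 0 in the 4 hypoblast-like cells, against means of 7.05 RPKM (SD 21.0) and 8.25 RPKM (SD 13.7) in epiblast-like cells.

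Of 11 remodelling genes, 2 of 4 measured were higher and 1 lower in hypoblast-like cells in both comparisons. PLTP, the phospholipid transfer protein, averaged 928 RPKM (SD 260) in hypoblast-like cells, against 76.9 RPKM (SD 59.5) in trophectoderm-like and 32.3 RPKM (SD 33.8) in epiblast-like cells. ABCA1, which hands cellular cholesterol to APOA1, averaged 31.9 RPKM (SD 51.7) with late blastocyst G-11 and G-12 at 0, against 0.000992 RPKM and 5.58 RPKM. LCAT, which esterifies cholesterol on high-density lipoprotein, was at 0.0103 RPKM on average, against 18.1 RPKM and 16.7 RPKM.

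Most plasma proteins of the later yolk sac and liver were not seen. Of 14 such genes, VTN (vitronectin) was the only 1 measured over epiblast-like cells, at 5.59, and it was at 179 RPKM in hatched G-14. ALB, TF, SERPINA1, FGA, FGG and AHSG were at most 0.0438 RPKM in any of the 95 cells. RBP4, the retinol carrier that TTR binds, averaged 0.0128 RPKM in hypoblast-like cells, against 5.65 RPKM (SD 20.4) in trophectoderm-like cells. Over trophectoderm-like cells 1 of 2 measured genes of this list was higher and 1 lower.

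Of 17 regulators of liver-type genes, 3 of 8 measured were higher and 3 lower over epiblast-like cells, and 4 of 7 were higher and 2 lower over trophectoderm-like cells. HNF4A, a nuclear receptor known to drive apolipoprotein genes in liver, was at 27.7, 14.2, 98.2 and 85.0 RPKM in the 4 hypoblast-like cells, with log2 ratios of 5.20 over epiblast-like and 4.66 over trophectoderm-like cells. FOXA1 had 6.16 and 6.19, and FOXA3 3.22 and 5.09. HNF4A was not particular to hypoblast-like cells. Late morula cells held 57.9 to 520 RPKM of it, with at most 7.76 RPKM of APOA1. Early blastocyst inner A-10, of cluster 1, held 201 RPKM of HNF4A. NR5A2 averaged 0.00717 RPKM in hypoblast-like cells, against 10.4 RPKM (SD 11.1) in epiblast-like cells, and PPARG was listed at 0, against 29.8 RPKM (SD 38.9) in trophectoderm-like cells.

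**Figure D5:**
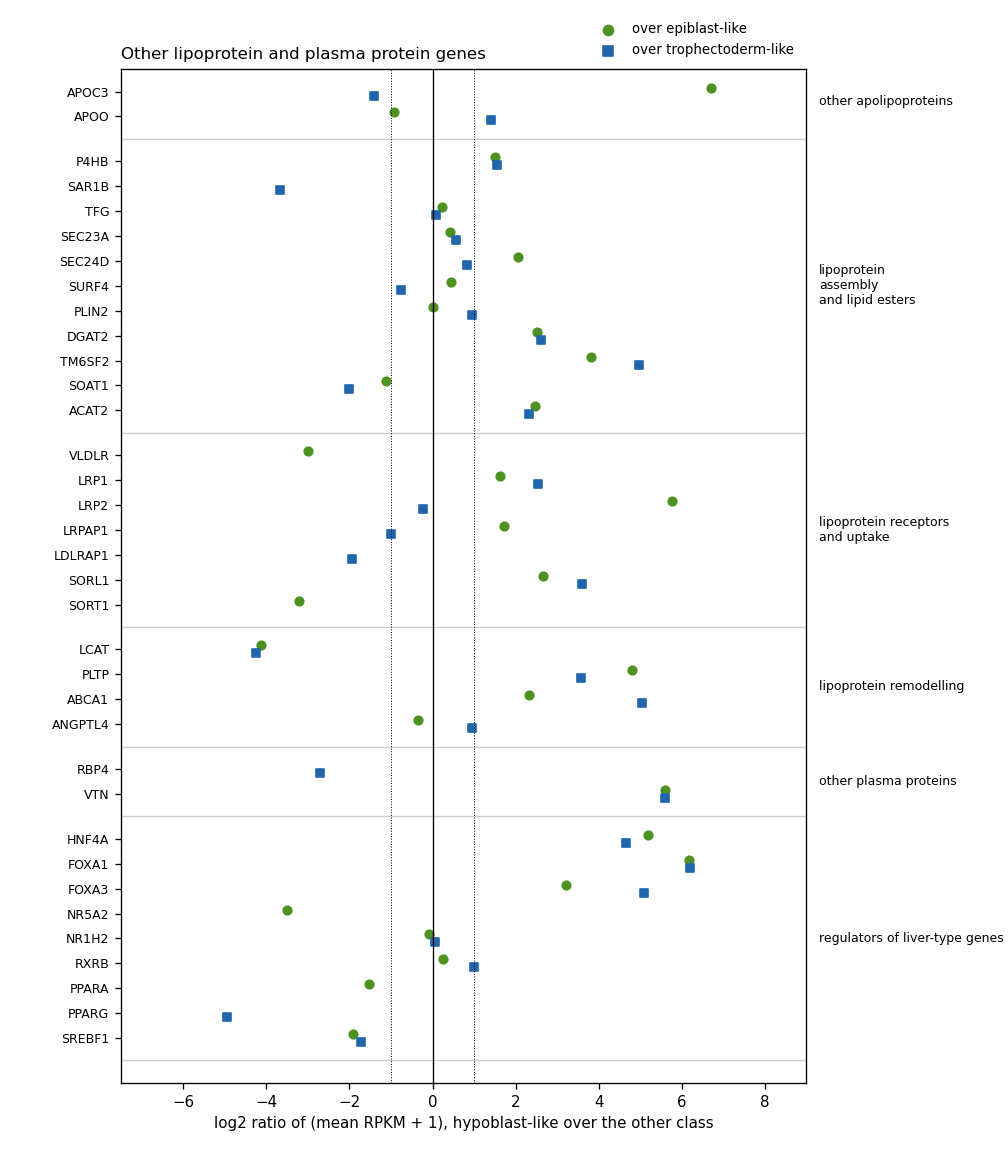
Log2 ratios of (mean RPKM + 1) of hypoblast-like over epiblast-like cells (circles) and over trophectoderm-like cells (squares) for measured genes of 6 lists, with dotted lines at 2-fold. TM6SF2, PLTP, ABCA1, VTN, HNF4A, FOXA1 and FOXA3 lie above 2-fold in both comparisons, and LCAT and SOAT1 lie below 2-fold in both. The values of TM6SF2 rest on late blastocyst G-17. ABCA1 and VTN were highest in hatched G-14 (108 and 179 RPKM) and at 0 in late blastocyst G-11 and G-12.

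Over the 37 late and hatched blastocyst cells, the genes most like each member were ranked by Pearson r of log2(RPKM + 1), among 8092 genes at 10 RPKM or more in at least 3 of these cells. Nearest to APOA1 were GATA4 (0.86), CDH2 (0.86), NID2 (0.84), SOX17 (0.82) and ADAM19 (0.82). Nearest to APOE were ALPL (0.71), SERPINE2 (0.70), IER2 (0.69), MARCKSL1 (0.68) and GPC3 (0.66). APOC1 had lower values, led by ATP6AP1 (0.67), PSAP (0.63), ATP6V0D1 (0.59), ZDHHC5 (0.59) and ATP2B1 (0.59). TTR was nearest to CRHBP (0.99), LHX1 (0.99), FLRT3 (0.96), ITIH5 (0.93) and PRDM1 (0.87), a likeness that rests on 3 cells. APOM, likewise seen in few cells, was nearest to FRZB (0.80), VMO1 (0.79), CRHBP (0.74), ITIH5 (0.73) and FLRT3 (0.72). MTTP and AFP reached 10 RPKM in too few of these cells to be ranked. APOC1 and APOE, neighbours on chromosome 19, had an r of only 0.10 (Spearman 0.12) over the 70 blastocyst cells, and APOA1 and MTTP 0.49 (Spearman 0.37). All these values run over single cells that share embryos and differ in depth.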

How the data were processed

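The authors deposited normalized values and the file does not name their unit. They were read as RPKM, counts that the authors divided by gene length and library size before they were deposited, since a gene's low values are whole multiples of a step set by gene and cell. For 11973 of 16049 genes (74.6%) they gave whole reads within 0.05. Steps that the submitters' processing notes name include FastQC, TopHat2 (2.1.0), HTSeq and DESeq2, with no role given. Genome build, annotation and strand are not given in the sources used here. The 7 members and the gene lists were chosen with earlier results of these data known, and 14282 symbols (7 of 7 members) match the RefSeq table used for names and neighbours.

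Groups were compared by the log2 ratio of mean RPKM + 1, with no test, since each group counts as 1 sample. A sum of reads per group was not used as the main value because the file holds no counts. Named list genes are the up to 4 of largest log2 ratio past 2-fold in a comparison, and others are named by role, after their values were seen. Cells were clustered on the 1000 most variable of 7921 genes at 10 RPKM or more in at least 5 cells, by Ward linkage on 10 principal components. A cluster was named where at least 50% of a lineage's markers lay 1 log2 unit above the other cells. Doublets were not called. Alternatives were pseudocounts of 0.1 and 5, no minimum, medians, depth weights, size factors, other cluster settings, shallow cells left out, single letters, and each cell left out. The code was tested on simulated data. Python 3.11.15, numpy 2.4.6, pandas 2.3.3, scipy 1.17.1 and matplotlib 3.10.9 were used. Genes of the lists not in this table (TEAD3, SUSD2, GATA6, GPX2, PTPRC, HBA, HBG1, APOA4, APOC4, APOH, MIA3, DGAT1, AMN, LMF1, RXRA, CEBPA) were not analysed here.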

Additional observations from a re-analysis of the deposited data

Results flagged for a closer look

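Cells far from the others were looked for within groups of 4 to 10 cells of 1 stage and position. Of these groups the inner early blastocyst pools letters A, G and H. A cell was marked where its gap to the nearest other cell took up a large share of the group's range (Dixon's test at the 95% level). Of 29 pairs of group and gene, 19 held such a cell, where chance alone marks about 5% of groups whose values are normally distributed; levels listed at 0 in most cells make such gaps common.

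In the blastocyst the marked cells were early blastocyst inner A-08 (4388 RPKM) and outer A-09 (348.9 RPKM) for APOA1, inner A-05 (592 RPKM) for APOE, and early blastocyst inner H-05 (342 RPKM) for APOC1. Inner A-08 was also marked for MTTP (0.118 RPKM) and outer A-06 for APOM (0.170 RPKM), each a level of a few reads.

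In the early morula APOA1 was marked in outer H-02 (29.4 RPKM) and inner H-04 (1.04 RPKM), APOC1 in inner H-04 (100.4 RPKM), and AFP in outer H-03 (1.44 RPKM) and inner H-03 (0.941 RPKM). In the late morula inner D-04 was marked for APOA1 (7.76 RPKM) and for APOC1 (16.4 RPKM). APOE was marked in outer D-10 (130.9 RPKM) and inner D-10 (71.4 RPKM). Inner D-07 was marked for APOM (1.33 RPKM) and TTR (0.123 RPKM), and outer D-05 for MTTP (0.0546 RPKM) and AFP (0.283 RPKM), in shallow libraries.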

How the results depend on the processing

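No paired analysis was possible because no label pairs cells across groups and no result comes from a test. Of 1387 recomputed log2 ratios of members, 1309 kept their call, 73 moved to another call and 5 reversed. Only members called higher or lower could count as reversed. A ratio between the thresholds could change sign and keep its call. APOC1 in late and hatched over early and middle blastocyst did so within letter G (0.13). Of 662 counts of members 627 stayed within 1.5 times. The 5 reversed were, in late and hatched over early and middle blastocyst, APOE in letter H (-0.80) and MTTP without hatched G-14 (-0.63, range -0.63 to 1.55 with each cell left out), APOA1 in outer over inner early blastocyst without inner A-08 (range -4.56 to 0.72), and AFP in hypoblast-like over epiblast-like cells within late blastocyst letter G (-0.41) or without hatched G-14 (range -0.19 to 3.34). Counts that moved, as members higher and lower, were as follows. Late and hatched over early and middle blastocyst gave 0 higher and 1 lower by medians, 1 and 1 in letter H, and 2 to 4 and 0 to 1 with each cell left out. Outer over inner 16-cell and morula gave 0 lower at pseudocount 5 or by medians, 1 higher with depth weights or without shallow cells, and 0 to 1 lower with each cell left out. Outer over inner in letter B gave 1 to 2 higher, and in letter A 2 to 3 lower, with each cell left out. Letters G and H over A and B gave 2 higher with no minimum, 2 lower by medians, and 1 to 2 higher and 0 to 1 lower with each cell left out. G over H gave 2 lower by medians or size factors and 0 to 2 with each cell left out. Trophectoderm-like over epiblast-like cells gave 2 higher with size factors or in late blastocyst letter G, and 1 to 2 higher and 0 to 1 lower with each cell left out. The cause was not tested. Size factors moved the median of all genes by -0.54 to 0.48 and turned no called member round. With 4 clusters the classes could not be named, so those comparisons were not run. Depth limits the lowest levels, which are a few reads.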

Other observations

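Among cells with markers of other layers, the trophectoderm-like late blastocyst G-27 carried 223 RPKM of APOA1 and 3369 RPKM of APOC3, and the trophectoderm-like hatched G-15 carried 11.8 RPKM of APOM and 17.3 RPKM of APOC2. CLU, or clusterin, reached 1 RPKM in 8 of the 70 blastocyst cells, with the highest level of 88.0 RPKM in middle blastocyst inner B-05.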
